A study of Homo sapiens with 21 samples.

Results

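The genes described here are HMGA1, HMGA2, HMGB1, HMGB2 and HMGB3, the HMGA and HMGB members of the high mobility group. They were chosen by name, and each of the 5 symbols matched 1 of the 16383 genes in the deposited table. RNA was sequenced from IMR90, a human lung fibroblast line, in 21 libraries that fall into 7 groups of 3. The proliferating group was not irradiated and, per the labels, received no treatment. The other 6 groups were made senescent by irradiation, received 5 nM siRNA on days 4 and 7 and were harvested on day 10. NT3 and NT4 are the non-targeting siRNAs of the control groups, which the series' design text numbers NT1 and NT2. The knockdown groups received siRNA against CCND1 (cyclin D1), against CDK4, against CDK6, or against CDK4 and CDK6 together, here called the dual knockdown. The irradiated groups differ from the proliferating group in both irradiation and transfection, so these effects cannot be told apart. All groups come from 1 cell line, the labels name 1 siRNA treatment for each target, and they do not say that libraries came from separate cultures. The p-values below therefore measure only the spread between these libraries, which may be technical. Libraries are given in the order of the table's columns, which carry no replicate number of the labels.

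High mobility group proteins are small, abundant chromatin proteins without enzyme activity. HMGA1 and HMGA2 bind the minor groove of AT-rich DNA through AT-hook motifs, and HMGA proteins are known as components of the heterochromatin foci of senescent fibroblasts. HMGA2 is best known from embryonic and mesenchymal cells and is a classic target of the let-7 microRNAs. HMGB1, HMGB2 and HMGB3 carry HMG-box domains that bend DNA. HMGB1 leaves the nucleus of senescent cells and acts outside the cell as an alarm signal on receptors such as AGER and TLR4. Loss of nuclear HMGB2 is a known mark of entry into senescence. Cyclin D1 activates the kinases CDK4 and CDK6, which phosphorylate the retinoblastoma protein and so release E2F factors to drive S phase genes.

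On GRCh38 in the RefSeq annotation, HMGA1 (ENSG00000137309) lies at chr6:34236873-34246231 on the plus strand. HMGA2 (ENSG00000149948) lies at chr12:65824460-65966291 on the plus strand. HMGB1 (ENSG00000189403) lies at chr13:30456704-30617597 on the minus strand. HMGB2 (ENSG00000164104) lies at chr4:173331376-173334358 on the minus strand, and HMGB3 (ENSG00000029993) at chrX:150980507-150990771 on the plus strand. RefSeq promoter windows were matched for 3 of the 5 genes, HMGA1, HMGB1 and HMGB3, and not for HMGA2 and HMGB2. All 3 genes with a match are shown, whatever their group profile. Whether the letters relate to the group profiles was not tested. Each line holds the 250 bases before the annotated start on GRCh38.p14, written 5′ to 3′ on the gene's own strand, with the letters of CCAAT boxes in capitals. Of 2, 3 and 2 windows for HMGA1, HMGB1 and HMGB3, only that at the start of the MANE Select reference transcript is shown. Motifs before other starts of these genes were not counted. The windows are chr6:34236623-34236872 (plus) for HMGA1, chr13:30465937-30466186 (minus) for HMGB1 and chrX:150983085-150983334 (plus) for HMGB3.
HMGA1: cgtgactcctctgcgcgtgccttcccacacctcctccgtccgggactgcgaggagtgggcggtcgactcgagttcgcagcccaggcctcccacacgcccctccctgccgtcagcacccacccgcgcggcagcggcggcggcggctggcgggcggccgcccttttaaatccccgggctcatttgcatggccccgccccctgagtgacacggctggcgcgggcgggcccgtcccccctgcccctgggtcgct
HMGB1: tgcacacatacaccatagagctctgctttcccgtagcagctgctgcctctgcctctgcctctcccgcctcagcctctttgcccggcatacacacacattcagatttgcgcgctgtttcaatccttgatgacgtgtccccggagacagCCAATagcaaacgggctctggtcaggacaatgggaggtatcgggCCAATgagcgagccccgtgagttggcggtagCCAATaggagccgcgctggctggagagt
HMGB3: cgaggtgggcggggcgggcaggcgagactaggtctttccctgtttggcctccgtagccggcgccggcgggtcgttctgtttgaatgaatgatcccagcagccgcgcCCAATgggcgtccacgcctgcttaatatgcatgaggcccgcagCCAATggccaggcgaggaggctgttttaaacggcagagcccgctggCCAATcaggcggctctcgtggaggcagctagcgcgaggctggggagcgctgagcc
The letters CCAAT occurred 3 times in the HMGB1 window, the nearest 28 bases before the start, and 3 times in the HMGB3 window, the nearest 55 bases before it. They did not occur in the HMGA1 window on either strand. CCAAT on either strand was present in 32.0% of all 35116 promoter windows of this length. The letters GGGCGG, a GC box, occurred 5 times in the HMGA1 window and 2 times in the HMGB3 window, counting both strands, against 42.6% of all windows with at least 1. The letters TTTGAA, a cell cycle homology region, occurred once in the HMGB3 window, against 13.3% of windows. The E2F letters TTTNNCGC occurred in none of the 3 windows, against 5.92% of windows. These matches describe letters only.

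Each value is a normalised read count, that is, a read count the authors divided by 1 size factor per library. Libraries held 12892442 to 21822152 reads in the table's genes. The siRNAs lowered their targets against the mean of the controls, with a log2 difference of -3.05 for CCND1, -3.51 for CDK4 and -2.59 for CDK6, and of -3.40 and -2.27 in the dual knockdown (limma, adjusted p = 1.18e-16, 8.59e-21, 2.08e-15, 1.75e-20 and 6.57e-15). The third NT3 library stood apart from its group, with a chi-square per degree of freedom of 38.2 and 59.4 against the other NT3 libraries, while all other pairs within groups lay between 2.94 and 7.81. All 12 fibroblast markers passed the filter on low values, with summed levels of 596136 to 1048030 over all libraries. Of the markers of other cell types 15 of 24 did not pass it (5 of 9 epithelial, 4 of 7 endothelial and 6 of 8 leukocyte), among them CDH1, PECAM1 and PTPRC, which reached at most 11.04, 20.6 and 8.90 normalised reads in any library. Other markers of these lists were expressed in every library: KRT8 at 262 to 412, KRT18 at 826 to 1995, KRT19 at 144 to 563, TEK at 1756 to 4484 and CD68 at 650.2 to 1588. Summed levels in proliferating and irradiated libraries were 2193 to 2412 and 1584 to 2688 for the epithelial list, 1764 to 1893 and 2059 to 4513 for the endothelial list, and 656 to 693 and 889 to 1616 for the leukocyte list, and their part in the results was not tested. In bulk samples, fewer cells that express a gene and less RNA per cell cannot be told apart.

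HMGB2, the HMG-box protein lost early in senescence, was far lower in every irradiated group than in proliferating cells. Its normalised read counts were 3903, 4081 and 3817 in proliferating cells, 413, 350.5 and 650.5 with NT3 and 339, 360.1 and 365 with NT4. With knockdown they were 284, 264 and 249 for CCND1, 494, 552 and 520.2 for CDK4, 229, 189 and 242 for CDK6 and 179.9, 189 and 194 for the dual knockdown. The 18 irradiated libraries did not overlap the proliferating ones, and among them the dual knockdown and CDK6 groups were lowest. The third NT3 library was the highest irradiated library, above all 3 CDK4 knockdown libraries. Group means as a share of the proliferating mean were 13.3% for CDK4, 11.98% for NT3, 9.02% for NT4, 6.75% for CCND1, 5.60% for CDK6 and 4.77% for the dual knockdown.

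In that order of HMGB2 means, 2 of the 6 steps passed the limma threshold of an adjusted p under 0.05, over 11579 genes tested. The order was taken from the same libraries, here and for the other genes, so the steps are a description. The step from proliferating to CDK4 knockdown gave 2.91 on the log2 scale (adjusted p = 1.5e-13, in a comparison that called 62.7% of all genes tested). The step from NT4 to CCND1 knockdown gave 0.42 (adjusted p = 0.0432, background 19.3%). The neighbours CDK4 and NT3, NT3 and NT4, CCND1 and CDK6, and CDK6 and dual knockdown did not differ beyond their spread (adjusted p = 0.332, 0.0646, 0.242 and 0.339).

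HMGB1, the most studied HMG-box protein and an alarm signal outside the cell, was also lower in all irradiated libraries, but the irradiated groups lay close together. Its normalised read counts were 8382, 8326 and 8487 in proliferating cells, 2000.4, 1846 and 2683 with NT3 and 2432, 2467 and 2585 with NT4. With knockdown they were 2212, 2244 and 2378 for CCND1, 2388, 2594 and 2735 for CDK4, 2213, 2024 and 2172 for CDK6 and 2100.4, 2112 and 2057 for the dual knockdown. The irradiated groups kept 24.9% (dual knockdown) to 30.6% (CDK4 knockdown) of the proliferating mean, and the 3 NT3 libraries spanned more than that range. In the order proliferating, CDK4, NT4, CCND1, NT3, CDK6 and dual knockdown, the first step gave 1.71 on the log2 scale (adjusted p = 4.32e-13). The other 5 steps did not pass, with adjusted p from 0.335 to 0.944.

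HMGB3, the X-linked HMG-box gene, was likewise lower in all irradiated libraries. Its normalised read counts were 1515, 1491 and 1563 in proliferating cells, 301, 324 and 414 with NT3 and 334, 313 and 339.5 with NT4. With knockdown they were 328, 348 and 333 for CCND1, 349, 336 and 398 for CDK4, 259.5, 319.6 and 267 for CDK6 and 301, 306 and 312 for the dual knockdown. All irradiated libraries lay below all proliferating ones, with irradiated group means at 18.5% to 23.7% of the proliferating mean. The NT3 libraries overlapped every other irradiated group, while the CDK6 and dual knockdown libraries all lay below those of CCND1 and CDK4 knockdown. In the order proliferating, CDK4, NT3, CCND1, NT4, dual and CDK6 knockdown, the first step gave 2.08 on the log2 scale (adjusted p = 1.33e-13), and the other 5 gave adjusted p from 0.461 to 0.874.

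HMGA1, an AT-hook protein, fell much less, and the 2 control siRNAs did not agree on its level. Its normalised read counts were 19680.3, 18782 and 19469 in proliferating cells, 11834, 10812 and 13122 with NT3 and 17919, 17824 and 18036 with NT4. With knockdown they were 16596, 15016 and 15269.7 for CCND1, 13132, 13809.6 and 13433 for CDK4, 12885, 12248 and 12456 for CDK6 and 12066, 10646 and 12244 for the dual knockdown. NT4 was the highest irradiated group at 92.8% of the proliferating mean, and NT3, at 61.7%, overlapped the CDK6 and dual knockdown groups. In the order proliferating, NT4, CCND1, CDK4, CDK6, NT3 and dual knockdown, the steps from NT4 to CCND1 (0.20, adjusted p = 0.0363) and from CCND1 to CDK4 (0.21, adjusted p = 0.021; background 23.3%) passed. The others did not, with adjusted p of 0.161 for proliferating and NT4, 0.243 for CDK4 and CDK6, 0.36 for CDK6 and NT3, and 0.726 for NT3 and the dual knockdown.

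HMGA2, the other AT-hook protein, was the only 1 of the 5 genes that was higher in the control senescent cells than in proliferating cells. Its normalised read counts were 5740.2, 5715 and 5731 in proliferating cells, 10873, 11354 and 10079.8 with NT3 and 8535, 8711 and 9453 with NT4. With knockdown they were 10498, 9555 and 10415 for CCND1, 15335, 16725 and 14051 for CDK4, 5264, 5057 and 5209.7 for CDK6 and 7616, 8099 and 8328 for the dual knockdown. CDK4 knockdown was the highest group, at 268% of the proliferating mean, and CDK6 knockdown was the lowest, at 90.4%. CDK6 knockdown was the only irradiated group whose libraries all lay below all proliferating libraries.

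Most steps in the order of HMGA2 means passed. These were CDK4 knockdown to NT3 (0.51, adjusted p = 5.3e-06; background 25.6%), CCND1 to NT4 (0.19, adjusted p = 0.0402), dual knockdown to proliferating (0.48, adjusted p = 9.03e-07; background 65.6%) and proliferating to CDK6 knockdown (0.15, adjusted p = 0.0495; background 66.1%). NT3 and CCND1 (adjusted p = 0.314) and NT4 and dual knockdown (adjusted p = 0.0701) did not differ beyond their spread. Over the 5 genes, 10 of 30 steps passed, where 11.6% of such steps did over all genes tested, each in its own order. Each order came from the same libraries as the tests, and the steps of a gene share groups, so both figures are descriptions. The count of 10 became 17 without the third NT3 library. It was 6 when the first or the third CCND1 library, or the first or the second NT4 library, was left out.

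**Figure D1:**
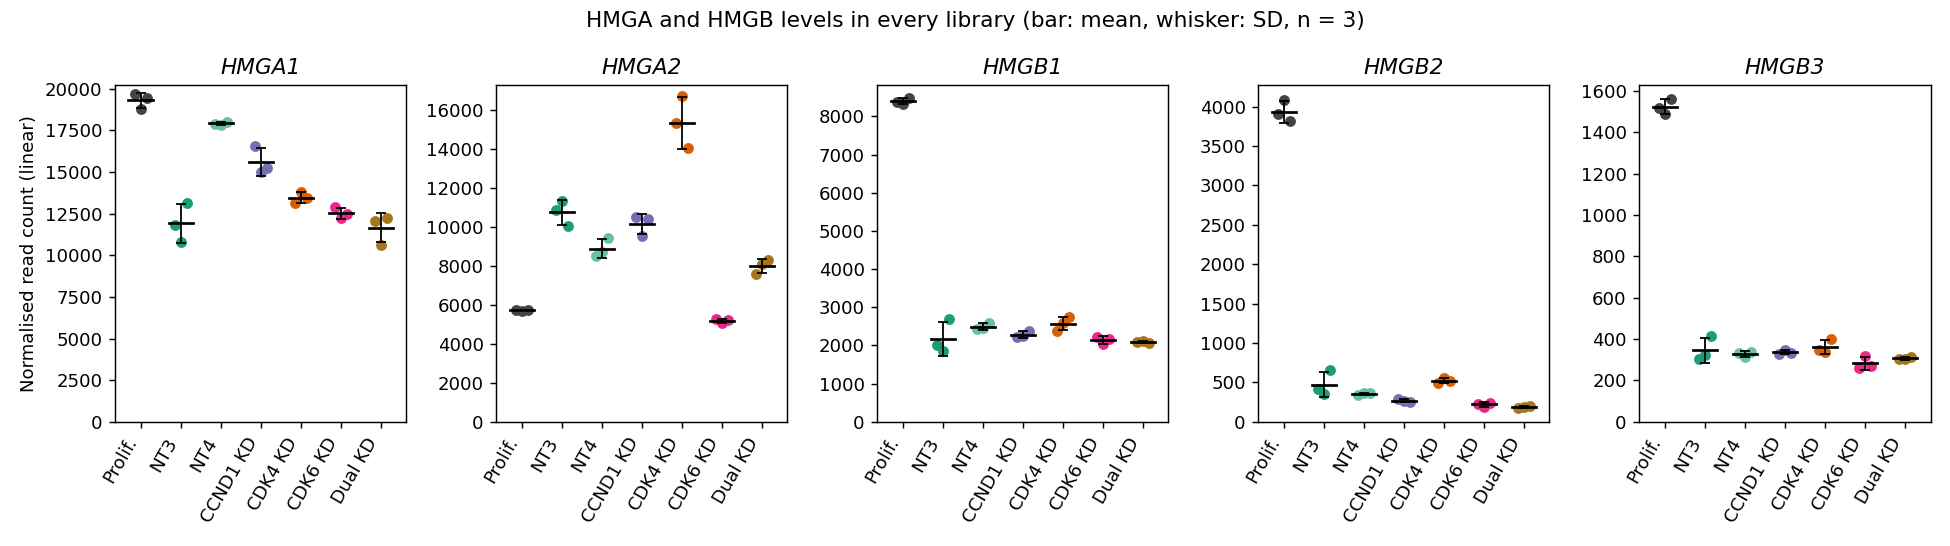
Normalised read count (linear axis from 0) of each gene in each library, by group; points are libraries, the horizontal line is the group mean and the whisker its SD (n = 3). HMGB1, HMGB2 and HMGB3 drop in all 6 irradiated groups, HMGA1 stays at 60.3% to 92.8% of its proliferating mean, and HMGA2 is highest with CDK4 knockdown and lowest with CDK6 knockdown.

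The first comparison set the 6 control libraries of irradiated cells against proliferating cells. All 5 genes passed the limma threshold and all 5 had libraries that did not overlap, where 68.6% of all genes tested passed (32.6% higher, 36.1% lower) and 54.1% did not overlap. On the log2(value + 1) scale HMGB2 fell by 3.29 (SE 0.12, adjusted p = 1.1e-15), to 0.102 of the proliferating level. HMGB3 fell by 2.18 (SE 0.09, adjusted p = 3.21e-15), to 0.221. HMGB1 fell by 1.86 (SE 0.08, adjusted p = 5.8e-15), to 0.276. HMGA1 fell by 0.40 (SE 0.06, adjusted p = 1.87e-06), but its difference was -0.11 (adjusted p = 0.161) with NT4 as the only control and -0.70 with NT3. HMGA2 rose by 0.77 (SE 0.06, adjusted p = 5.2e-11), 1.71-fold the proliferating level. The median over all genes was -0.03, and centring each library on its median raised it by 0.113, to 0.09.

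The next comparison set the 2 control siRNAs against each other, both in irradiated cells. HMGA1 was higher with NT4 by 0.59 (SE 0.07, adjusted p = 8.05e-07), and HMGA2 was lower, at -0.27 (SE 0.06, adjusted p = 0.00292), so 2 of 5 genes passed against 27.8% of all genes. HMGA1 had NT4 libraries between 17824 and 18036 and NT3 libraries between 10812 and 13122, with no overlap. HMGA2 had no overlap either, with NT4 libraries between 8535 and 9453 and NT3 libraries between 10079.8 and 11354. Of all genes, 34.9% did not overlap. HMGB1 (0.22, adjusted p = 0.0763), HMGB2 (-0.36, adjusted p = 0.0646) and HMGB3 (-0.06, adjusted p = 0.689) did not pass. The third NT3 library was the highest of its group for HMGB1, HMGB2 and HMGB3. Without it HMGB1 was higher with NT4 by 0.38 (adjusted p = 9.68e-06). HMGB2 was lower with NT4 without the first or the second NT3 library (-0.43 and -0.55, adjusted p = 0.0475 and 0.00277), in edgeR (adjusted p = 0.0483) and in DESeq2 (0.0267).

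CCND1 knockdown was compared with the mean of the control groups, which the other knockdown comparisons share. HMGB2 fell by 0.60 (SE 0.12, adjusted p = 0.00088), to 0.661 of the control level, and its 3 libraries lay below all 6 control libraries. It was the only 1 of 5 genes to pass, against 31% of all genes tested, and the only 1 without overlap, against 21.2%. HMGB1 and HMGB3 had differences of -0.02 (95% interval -0.18 to 0.14) and 0.00 (-0.18 to 0.18), and HMGA2 of 0.05 (-0.06 to 0.17). HMGA1 had 0.10 (-0.02 to 0.22), and its sign depended on the control: 0.39 against NT3 alone and -0.20 against NT4 alone (adjusted p = 7.94e-05 and 0.0363). Without the third NT3 library, HMGA1 had 0.13 (adjusted p = 0.0209), which made 2 of 5.

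CDK4 knockdown raised HMGA2. The difference from the controls was 0.65 (SE 0.06, adjusted p = 4.38e-08), 1.57-fold the control level, and all 3 libraries lay above all 6 controls. HMGB2 was also past the threshold, with 0.38 (SE 0.12, adjusted p = 0.0409), but its libraries overlapped the controls, through the third NT3 library. That call was lost in 13 of the alternative analyses, among them the fit without any 1 of the CDK4 libraries (adjusted p = 0.0771, 0.174 and 0.1) or of the NT4 libraries (0.0754, 0.0597 and 0.0546), without the first or the second NT3 library (0.0762 and 0.064), and the comparison with NT3 alone (0.20, adjusted p = 0.332). The count was thus 2 of 5 genes against 16% of all genes, and 1 of 5 without overlap against 11.2%. HMGA1 had -0.12 (95% interval -0.24 to 0.00), again with a sign that followed the control, at 0.18 against NT3 alone and -0.41 against NT4 alone (adjusted p = 0.0492 and 0.000165). HMGB1 had 0.15 (-0.01 to 0.31) and HMGB3 0.10 (-0.08 to 0.28). Without the third NT3 library HMGB1 had 0.23 (adjusted p = 0.000364), and without the second HMGA1 had -0.15 (adjusted p = 0.0456).

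CDK6 knockdown moved HMGA2 the other way. HMGA2 fell by 0.92 (SE 0.06, adjusted p = 4.71e-11), to 0.529 of the control level, and HMGB2 fell by 0.87 (SE 0.12, adjusted p = 7.87e-06), to 0.546. Both had libraries below all controls. HMGB3 fell by 0.26 (SE 0.09, adjusted p = 0.0223) with libraries that overlapped the controls. It lost the call without the first or the third CDK6 library (adjusted p = 0.132 and 0.105). The HMGB3 call was also lost against NT4 alone (-0.23, adjusted p = 0.0968) and with only the groups compared (adjusted p = 0.105). HMGA1 had -0.22 (SE 0.06, adjusted p = 0.00358), also with overlap, and 0.08 (adjusted p = 0.36) against NT3 alone. These 4 of 5 genes, all lower, compare with 41.9% of all genes tested (20.8% lower), and the 2 of 5 without overlap with 28.6%. HMGB1 had -0.12 (95% interval -0.28 to 0.04), and -0.17 (adjusted p = 0.0438) without the second NT3 library.

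With dual knockdown HMGB2 had its lowest group mean, though it was not separated from CDK6 knockdown (-0.22, adjusted p = 0.339). HMGB2 fell by 1.09 (SE 0.12, adjusted p = 2.93e-07), to 0.468 of the control level, and HMGA2 fell by 0.29 (SE 0.06, adjusted p = 0.000239), both without overlap. HMGA2 had -0.15 (adjusted p = 0.0701) against NT4 alone. HMGA1 had -0.33 (SE 0.06, adjusted p = 7.69e-05) with overlap, and -0.03 (adjusted p = 0.726) against NT3 alone. The count was 3 of 5 genes, all lower, against 44% of all genes (21.5% lower), and 2 of 5 without overlap against 28.3%. HMGB1 (-0.15, 95% interval -0.31 to 0.01) and HMGB3 (-0.13, -0.31 to 0.05) did not pass, though HMGB1 did without the second NT3 library (-0.20, adjusted p = 0.0189) and against NT4 alone (-0.25, adjusted p = 0.0292). Against proliferating cells all 5 passed (65.6% of all genes), with HMGB2 at -4.38, 0.0479 of the proliferating level, HMGB3 at -2.31, HMGB1 at -2.01, HMGA1 at -0.73 and HMGA2 at 0.48.

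**Figure D2:**
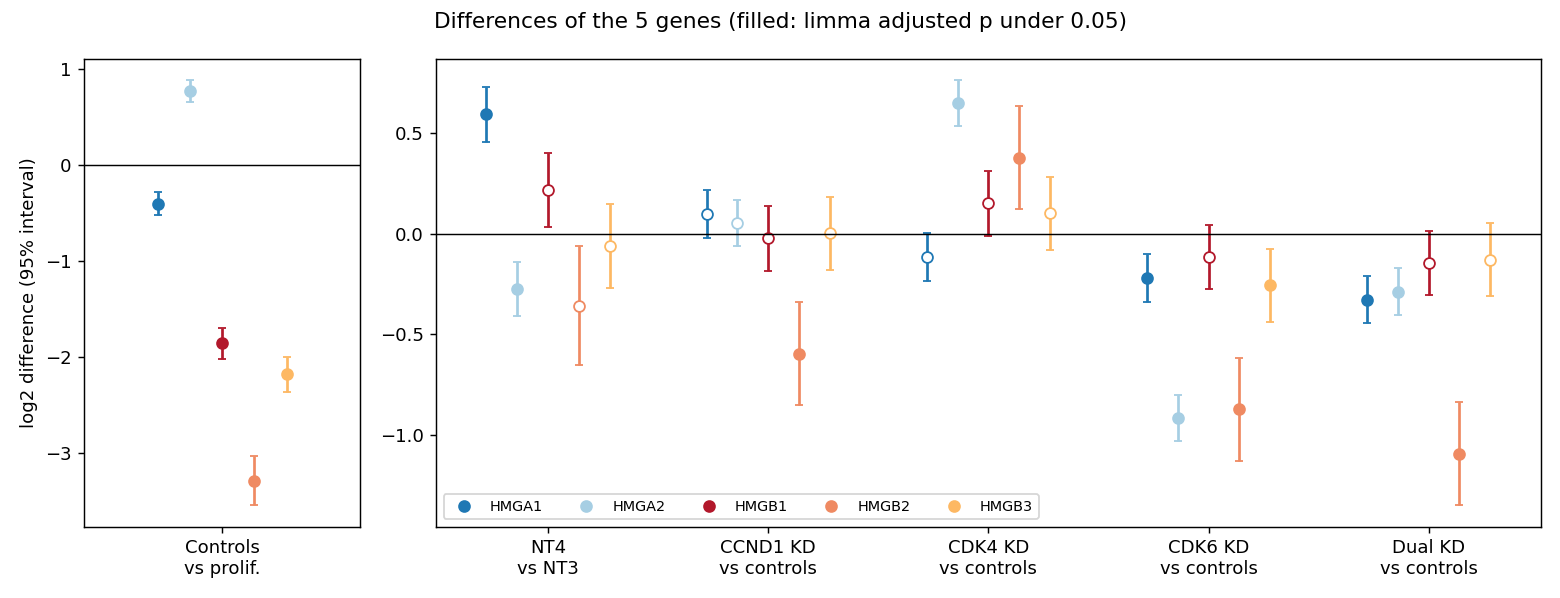
Log2 difference with its 95% interval for each gene in 6 comparisons, the controls against proliferating cells at the left and the others at the right on a separate axis; filled points have a limma adjusted p under 0.05. HMGA2 lies at 0.65 with CDK4 knockdown and -0.92 with CDK6 knockdown, and HMGB2 falls in 3 of the 4 knockdowns.

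The kinase knockdowns were then compared with each other. These differences use no control library, but the spread behind their p-values was estimated over all 7 groups. CDK6 against CDK4 knockdown called 4 of 5 genes, all lower, against 34.8% of all genes tested (17.3% lower). HMGA2 was lower with CDK6 knockdown, at -1.57 (SE 0.06, adjusted p = 2.22e-13), 0.338 of the CDK4 knockdown level, and so was HMGB2, at -1.25 (SE 0.14, adjusted p = 5.6e-07), 0.421 of it. HMGB1 (-0.27, adjusted p = 0.0233) and HMGB3 (-0.36, adjusted p = 0.00828) were lower by smaller amounts, and both lost the call without the third CDK4 library (adjusted p = 0.103 and 0.0563). HMGB1 also lost it without the second CDK4 or the second CDK6 library (adjusted p = 0.0637 and 0.0934). HMGA1 did not pass (-0.10, 95% interval -0.24 to 0.03).

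Dual against CDK4 knockdown called 4 of 5 genes, all lower, against 30.6% of all genes, where 14.8% were called lower. HMGB2 differed by -1.47 (adjusted p = 5.47e-08), HMGA2 by -0.94 (adjusted p = 2.67e-10), HMGB1 by -0.30 (adjusted p = 0.0145) and HMGA1 by -0.21 (adjusted p = 0.0184). HMGB3 had -0.23 (adjusted p = 0.0879). The HMGA1 call was lost without the second dual or second CDK4 library (adjusted p = 0.118 and 0.0712), and the HMGB1 call without the third CDK4 library (adjusted p = 0.0681). Dual against CDK6 knockdown called only HMGA2, which was higher in the dual knockdown by 0.63 (adjusted p = 6.08e-07), against 13% of all genes. The HMGB2 difference there was -0.22 (95% interval -0.52 to 0.07).

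Against the dual knockdown, CCND1 knockdown had higher libraries without overlap for all 5 genes, where 40.9% of all genes did not overlap in either direction. The limma test called 3 of 5, against 20.3% of all genes (11.2% higher): HMGB2 at 0.50 (adjusted p = 0.0155), HMGA1 at 0.42 (adjusted p = 6.45e-05) and HMGA2 at 0.34 (adjusted p = 0.000513). HMGB1 and HMGB3 had 0.12 and 0.13 (adjusted p = 0.37 and 0.399). The HMGB2 call was lost without the first CCND1 or the first dual library (adjusted p = 0.0672 and 0.058).

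The measured dual knockdown was also set against the sum of the single CDK4 and CDK6 differences. For HMGA2 the opposite single differences of 0.65 and -0.92 sum to -0.27, and the dual knockdown measured -0.29, a departure of -0.02 (95% interval -0.20 to 0.16). For HMGB2 the sum is -0.50 and the dual knockdown measured -1.09, a departure of -0.60 (-0.99 to -0.21, adjusted p = 0.0611). Departures were 0.01 (-0.17 to 0.19) for HMGA1, -0.18 (-0.43 to 0.06) for HMGB1 and 0.02 (-0.25 to 0.30) for HMGB3. The HMGA1 departure turned with the control, at -0.29 (adjusted p = 0.0388) with NT3 alone and 0.31 (adjusted p = 0.0699) with NT4 alone. With limma and both controls 0 of 5 genes passed the adjusted threshold, where 6.35% of all genes did. The only unadjusted limma p under 0.05 was that of HMGB2 (0.00447). The edgeR test on whole reads also called 0 of 5, and DESeq2 called 1, HMGB2 (adjusted p = 0.0373). Over the alternatives that kept all libraries the adjusted p of HMGB2 ranged from 0.0298 to 0.154. Without the third NT3 library HMGB2 had -0.73 and HMGB1 -0.26 (adjusted p = 7.52e-05 and 0.00995), and HMGB2 also passed without the second NT3 or the second CDK6 library (adjusted p = 0.0436 and 0.0422).

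**Figure D3:**
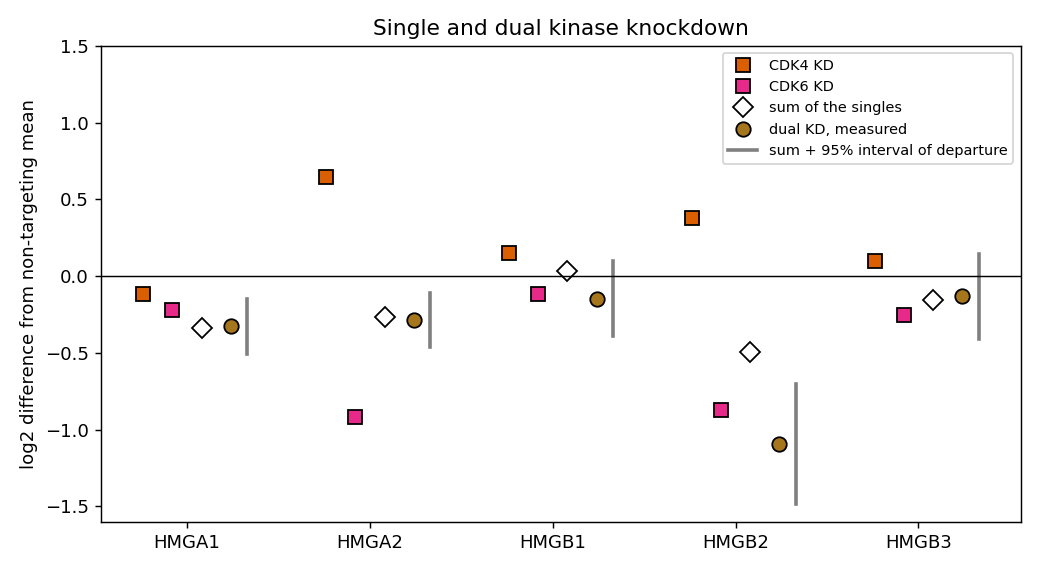
Log2 difference from the mean of the control libraries for each gene: squares, CDK4 and CDK6 knockdown; open diamond, the sum of these; circle, the measured dual knockdown; grey bar, the sum plus the 95% interval of the departure. The HMGA2 circle lies on its diamond, and the HMGB2 circle (-1.09) lies below its diamond (-0.50).

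Cell cycle genes are given beside HMGB2, which is itself abundant in dividing cells. The lists hold 24 S phase genes and 24 genes of G2 and mitosis, and none of the 5 HMG genes. All 24 G2 and mitosis genes fell in the controls against proliferating cells (median log2 difference -3.04, all genes -0.03), as did all 24 S phase genes (-2.25), where 36.1% of all genes fell. MKI67, a proliferation marker, had -3.63, TOP2A, a topoisomerase of dividing cells, -3.16, and MCM2, a subunit of the replicative helicase, -2.35, against -3.29 for HMGB2.

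With CCND1 knockdown 22 of the 24 G2 and mitosis genes fell and none rose (median -0.67, all genes -0.01), and 18 of 24 S phase genes fell (-0.53), beside -0.60 for HMGB2. With CDK4 knockdown 12 of 24 G2 and mitosis genes rose and none fell (median 0.37, all genes 0.00), and 1 S phase gene, RRM2, passed (0.36, adjusted p = 0.0193), beside 0.38 for HMGB2. With CDK6 knockdown 23 of 24 fell in each list (medians -0.83 and -0.89), beside -0.87. With dual knockdown all 24 fell in each (medians -2.25 and -1.30), beside -1.09. Of all genes, 31%, 16%, 41.9% and 44% were called in these 4 comparisons, which share their controls.

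The differences of dual against CDK6 knockdown use no control library, though their p-values rest on a spread estimated over all 7 groups. All 24 G2 and mitosis genes were lower in the dual knockdown (median -1.36) and 12 of 24 S phase genes were (-0.49), where 13% of all genes were called, while HMGB2 had -0.22 and did not pass. HMGB1 had -0.03 and HMGB3 0.12 there. In the third NT3 library HMGB2 lay 0.69 above the control mean on the log2 scale, HMGB3 0.30 and HMGB1 0.21, while the median of the G2 and mitosis genes lay at 0.04 and that of the S phase genes at 0.21. Whether cycling cells, or the third NT3 library, account for any difference of the HMGB genes was not tested.

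**Figure D4:**
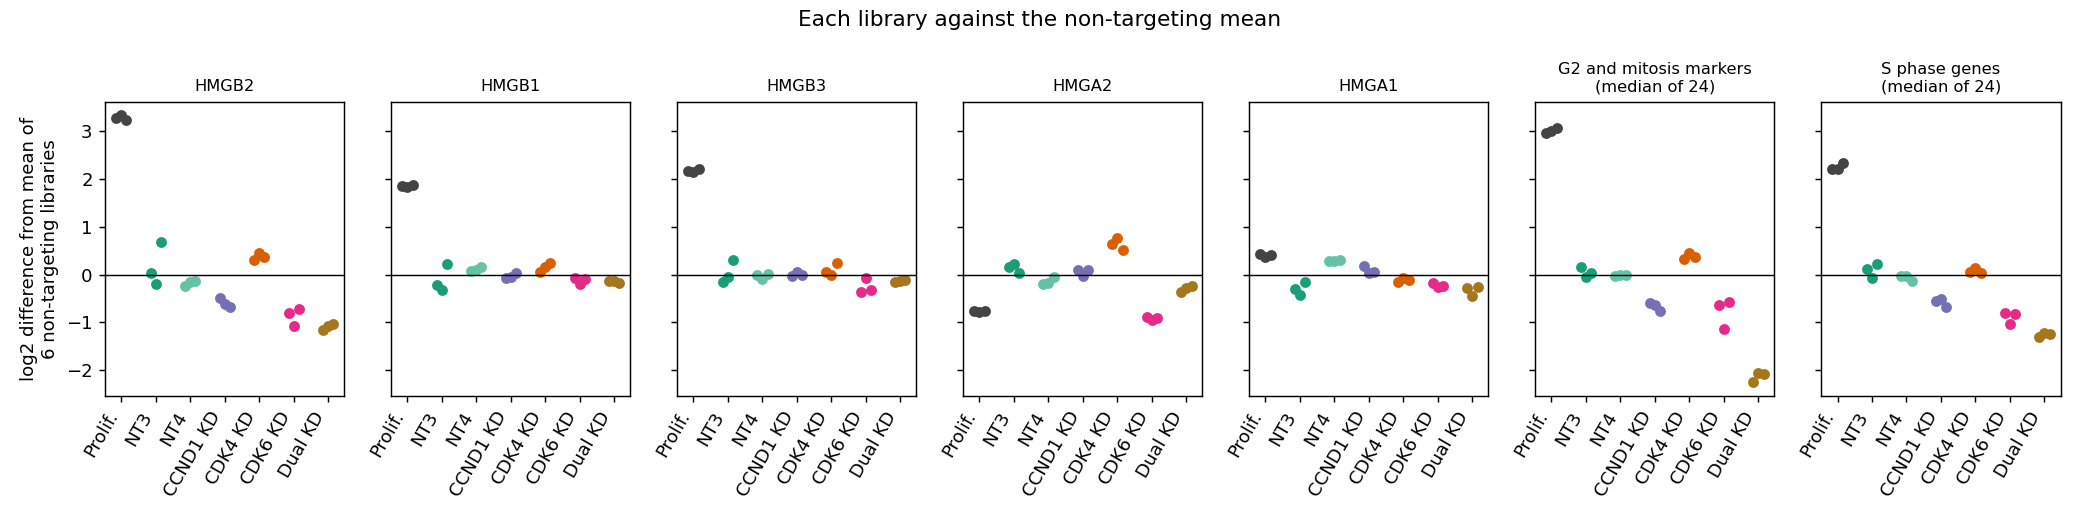
Each library's log2 difference from the average control level, for the 5 genes and for the medians of 24 G2 and mitosis genes and 24 S phase genes; points are libraries, coloured by group. HMGB2 and both lists are above 0 with CDK4 knockdown and below 0 with CCND1, CDK6 and dual knockdown, HMGB1 and HMGB3 lie between -0.37 and 0.30 in the irradiated groups, and HMGA2 lies at 0.52 to 0.77 with CDK4 and at -0.95 to -0.89 with CDK6 knockdown.

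Other HMG genes were taken from a list of 30, made of HMGN genes, HMG-box genes and the partner gene SUPT16H, and 28 passed the filter. In the controls against proliferating cells 19 of 28 fell and 4 rose (median -0.54), where 36.1% of all genes fell and 32.6% rose. The nucleosome-binding genes HMGN1 and HMGN2 fell (log2 differences of -0.91 and -1.88). So did both subunits of the histone chaperone FACT, SSRP1 (-1.39) and SUPT16H (-0.84), and TFAM, the HMG-box factor of mitochondrial DNA (-0.55). HMGN5 did not pass (0.24, adjusted p = 0.195). NT4 against NT3 gave 11 higher and 0 lower of 28 (27.8% of all genes were called in either direction), among them HMGN1 (0.71, adjusted p = 4.62e-07). Knockdown counts were 3 higher and 6 lower for CCND1, 1 and 0 for CDK4, 5 and 8 for CDK6, and 4 and 7 for the dual knockdown. These are 9, 1, 13 and 11 of 28, where 31% (CCND1), 16% (CDK4), 41.9% (CDK6) and 44% (dual) of all genes were called. HMGN2 and SSRP1 fell in the dual knockdown (-0.53 and -0.39, adjusted p = 6.22e-06 and 1e-06), while HMGN1 rose by 0.46 (adjusted p = 7.53e-06), though by 0.10 (adjusted p = 0.314) against NT4 alone.

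Linker histones and genes of heterochromatin foci, the structures in which HMGA proteins are found, formed a list of 25, with 21 tested. In the controls against proliferating cells 19 fell and 1 rose (median -0.82), against the same 36.1% and 32.6% of all genes. LMNB1, lamin B1, whose loss marks senescence, fell (-4.02), as did the histone chaperone ASF1B (-2.54) and CBX5, which encodes heterochromatin protein 1 alpha (-1.44). The gene that rose was the linker histone H1-2, by 2.60, and H1-2 was lower with NT4 than with NT3 (-1.004, adjusted p = 3.24e-06). Poly(A) capture selects against replication-dependent histone mRNA, which lacks a poly(A) tail, and H1-5 reached at most 3 reads in any library. Knockdown counts were 3 higher and 5 lower for CCND1, 2 and 0 for CDK4, 1 and 10 for CDK6, and 2 and 7 for the dual knockdown. These 8, 2, 11 and 9 of 21 compare with 31%, 16%, 41.9% and 44% of all genes. LMNB1 had -0.76, 0.22, -1.29 and -2.35 in these comparisons (adjusted p = 0.000684, 0.379, 8.22e-07 and 7.21e-11).

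Genes of HMGB1 receptors and signalling formed a list of 20, of which 19 were in the table and 14 were tested. The list is not limited to partners outside the cell, and its tested genes include XPO1, KAT2A, KAT2B, EP300, SIRT1 and PARP1. AGER, the receptor for advanced glycation end products, reached at most 1 read in any library, TLR4 at most 4 and TLR2 at most 7, and these were not tested. In the controls against proliferating cells 8 rose and 5 fell (median 0.25), against 32.6% and 36.1% of all genes. THBD, thrombomodulin, which binds HMGB1, rose by 4.85. It had 1 read in each proliferating library, so this size rests on the pseudocount (5.73 with 0.1 and 2.57 with 10). LY96, the TLR4 co-receptor MD-2, rose by 0.79, and CXCL12, a chemokine that forms a complex with HMGB1, fell by 0.52, a call lost with NT4 as the only control (-0.14, adjusted p = 0.547). Dual knockdown gave 2 higher and 9 lower, and both CXCL12 and THBD fell (-1.11 and -1.74, adjusted p = 1.06e-05 and 1.18e-05). The counts were 1 and 4 for CCND1, 1 and 0 for CDK4, and 2 and 5 for CDK6. In either direction, 11 of 14 were called in the dual knockdown against 44% of all genes, and 5, 1 and 7 of 14 for CCND1, CDK4 and CDK6 against 31%, 16% and 41.9%.

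The let-7 pathway, which acts on HMGA2 mRNA, was described by 31 genes of microRNA processing and let-7 targets, of which 28 were tested; mature microRNAs were not measured. In the controls against proliferating cells 17 fell and 3 rose (median -0.36), against 36.1% and 32.6% of all genes, while HMGA2 rose. The mRNA-binding proteins IGF2BP1, IGF2BP2 and IGF2BP3 fell (-0.34, -0.72 and -0.53), AGO2 fell (-0.46), and DICER1 had -0.19 (adjusted p = 0.116). With NT4 as the only control IGF2BP3 and AGO2 lost the call (adjusted p = 0.447 and 0.14). LIN28A, a let-7 inhibitor, reached at most 3.64 normalised reads in any library and was not tested. LIN28B, the other LIN28 gene of the list, had no values in the deposited data, so its level is not known. The largest Entrez gene ID in those data was 140467, and genes with higher IDs have no values here. Between knockdowns, IGF2BP3 rose in all 4, by 0.86 with CCND1, 0.91 with CDK4, 0.61 with CDK6 and 0.84 with dual knockdown, and it was 0.94 higher with NT4 than with NT3 (adjusted p = 2.08e-09). Against NT4 alone the CDK6 knockdown difference of IGF2BP3 was 0.14 (adjusted p = 0.134). The list counts were 8 higher and 4 lower for CCND1, 4 and 1 for CDK4, 6 and 7 for CDK6, and 7 and 7 for the dual knockdown (12, 5, 13 and 14 of 28, against 31%, 16%, 41.9% and 44% of all genes), beside 0.05, 0.65, -0.92 and -0.29 for HMGA2.

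Genes with the most similar course over the 7 group means were found among 9100 genes, by the root mean square difference of log2 values after each gene was centred on its own mean. These distances describe 7 points per gene that share libraries and controls, and carry no test. For HMGB2 the nearest was CDKN2C, which encodes the CDK4 and CDK6 inhibitor p18, at 0.106, followed by KIF11, a mitotic spindle motor, at 0.237 and FANCD2, a DNA repair gene, at 0.238, where the median gene lay at 1.37. For HMGB1 they were LMNB2 (lamin B2) at 0.083, STMN1 (stathmin, a tubulin-binding protein) at 0.089 and SMC2 (a condensin subunit) at 0.091, with a median of 0.672. For HMGB3 they were SCD (a fatty acid desaturase) at 0.111, RCC1 (a chromatin-bound exchange factor for Ran) at 0.124 and RFC5 (a clamp loader subunit) at 0.129, with a median of 0.787.

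For HMGA1 the nearest genes were CYREN at 0.057, JADE3 at 0.074 and SIPA1L3 at 0.074 (median 0.328). NT4 was above NT3 in all 3, by 0.57, 0.47 and 0.38, beside 0.59 for HMGA1. These 3 genes were chosen for likeness over group means that include NT3 and NT4, so that difference is part of the choice. For HMGA2 they were IL32, a cytokine, at 0.167, ENTPD7, a nucleotide hydrolase, at 0.186 and SEMA3C, a secreted semaphorin, at 0.219 (median 0.553). Both IL32 and SEMA3C were chosen for this likeness and fell with CDK6 knockdown (-0.81 and -0.69), while with CDK4 knockdown IL32 had 0.46 and SEMA3C 0.19, beside 0.65 for HMGA2. Among the 5 genes, HMGB1 and HMGB3 were closest to each other at 0.151, and 26 of the other genes were nearer to HMGB1. HMGB2 lay 0.647 from HMGB3 and 0.756 from HMGB1. HMGA1 and HMGA2 lay 0.616 apart, farther than 8404 genes from HMGA1.

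**Figure D5:**
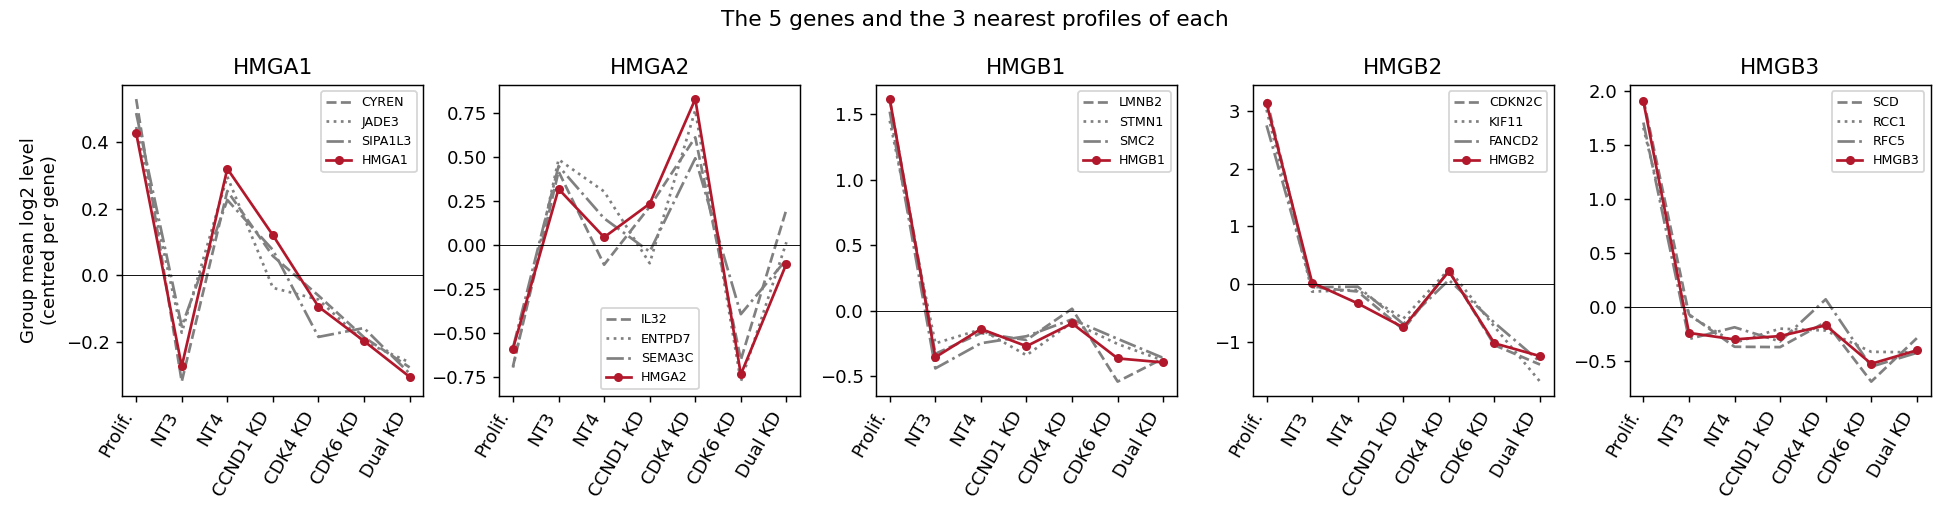
Mean log2 level of each group, centred on the gene's own mean over the 7 groups, for each of the 5 genes (solid, with points) and the 3 genes with the smallest root mean square difference from it (grey, dashed or dotted). HMGB1, HMGB2 and HMGB3 run from a high proliferating value to low irradiated values, HMGA1 shows the NT4 value above NT3, and HMGA2 peaks at CDK4 and dips at CDK6 knockdown.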

How the data were processed

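RNA-seq of 21 libraries was analysed from 1 table. Per the file headers it holds the authors' normalised counts, a signal never below 0. All values of each library were whole multiples of 1 step, so 100% returned whole reads within 0.01 read. Per the submitters' processing notes the tools were Trimmomatic 0.38.1, HISAT2 2.2.1, featureCounts 2.0.3, FastQC 0.74, MultiQC and DESeq2 2.11.40.8, with builds hg38 and GRCh38; their settings are not given in the sources used here. Strand setting and the handling of reads shared with processed pseudogenes, which HMGA1, HMGB1 and HMGB3 have, are among these, so their levels are uncertain to that extent. Of such copies the table lists HMGB3P1, at 0 in every library.

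A gene was tested when 3 or more libraries reached a value of 10, which kept 11579 genes, the 5 HMG genes among them. In R 4.3.3, limma 3.58.1 fitted log2(value + 1) over all 7 groups with a trended empirical Bayes variance. Two-sided p-values were Benjamini-Hochberg adjusted across tested genes in each of 12 comparisons. Differences in order of group means came from the same fit, and each order from the same libraries. The script was tested on simulated data. No 2 libraries of the same group were alike within sampling noise, and pairs from different groups were not compared in this way. The 5 genes, the gene lists and the tests were chosen with earlier results of these data known. Named genes are the 5 genes, the 3 nearest profiles of each among genes with a mean of at least 100, up to 6 fixed genes per list, copies of the 5 genes and the knockdown targets; the cell type markers and LIN28A were added after their values were seen. Coordinates and promoters are from RefSeq on GRCh38.p14; motifs were searched on both strands.

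The alternatives tried were no filter, a mean of at least 100, a pseudocount of 0.1 or 10, median centring, quantile normalisation, only the groups compared, no variance trend, each control alone, edgeR 4.0.16 and DESeq2 1.42.0 on whole reads, each library left out, and a block.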

Additional observations from a re-analysis of the deposited data

How the results depend on the processing

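Of 60 results (5 genes in 12 comparisons), 36 kept their side of the threshold under every alternative, and 31 of these kept their sign too. Of 1240 alternative values 1182 kept their side, 27 of them with a changed sign while not called (sizes up to 0.12), 30 lost and 24 gained the call and 4 reversed. The reversals were all in HMGA1 and depended on the control: CCND1 knockdown -0.20 against NT4 alone, CDK4 knockdown 0.18, CDK6 knockdown 0.0759 and the departure from the sum -0.29 against NT3 alone. Among other named genes, reversals were AGO2 with CCND1 knockdown (0.28, NT3 alone) and CDK4 knockdown (-0.00894, NT4 alone), CBX5 with CCND1 knockdown (-0.0403, NT4 alone), H1-2 with CDK4 and CDK6 knockdown (0.39 and 0.0608, NT4 alone) and dual knockdown (-0.48, NT3 alone), and HMGN1 with CCND1 and CDK4 knockdown (-0.0686 and -0.0254, NT4 alone).

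Among other changes, genes called of the 5 with CCND1 knockdown went from 1 to 2 (NT3 alone) and 3 (NT4 alone). With CDK4 knockdown they went from 2 to 1 with irradiated libraries only, no filter, no variance trend or only the groups compared. They went to 3 there with either control alone. With CDK6 knockdown the count went from 4 to 3 with either control alone or only the groups compared. CDK6 against CDK4 knockdown went from 4 to 5 with quantile normalisation. NT4 against NT3 went from 2 to 1 with only the groups compared. The departure from the sum went from 0 to 1 with DESeq2, NT3 alone or NT4 alone. Steps in the order of means went from 10 to 6 with no filter or no variance trend. Leaving out 1 library gave 1 to 2 genes for CCND1, 1 to 3 for CDK4 and 3 to 5 for CDK6. It gave 2 to 4 for CDK6 against CDK4, 0 to 2 for the departure and 6 to 17 steps. The causes were not tested, save that only the groups compared leaves fewer libraries.

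No paired analysis was possible with the labels' replicate numbers because the columns carry none. Header numbers fall into 3 runs of 6 irradiated libraries, and a replicate block on these runs, added after seeing the data, moved 1 call among the 5 genes: HMGB2 for NT4 against NT3 (-0.36, adjusted p = 0.0496). Deviations of same-run libraries had a median correlation of 0.0372 over 45 pairs against -0.0166 over 90 pairs of different runs. Correlations this weak cannot decide whether the runs pair the samples. Median centring raised the share of genes higher in the controls than in proliferating cells from 47.4 to 57.9%, and in dual knockdown from 49.9 to 61.1%, with no change of a call among the 5 genes. HMGB2 and HMGB3 had the fewest reads of the 5 genes in irradiated libraries, which limits the differences detectable there.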
